A study of Mus musculus with 50 samples.

Results

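Nucleotide excision repair was followed through 10 genes, Xpa, Xpc, Ercc1, Ercc2, Ercc3, Ercc4, Ercc5, Ercc6, Ercc8 and Ddb2. They were taken by gene name from the 12819 rows of the authors' deposited table of expression changes in cells engineered for loss of the kinase Cdk12. All 10 were listed, and all carried both of the table's statistics at both times. The cells were V6.5 mouse embryonic stem cells (C57Bl/6-129) of genotype Cdk12 -/-:Cdk12 Tg+. They lack the endogenous kinase and live on a Flag- and HA-tagged Cdk12 transgene that doxycycline (Dox) switches on. PolyA-selected RNA was sequenced from 2 clones, 28 and 36, each in duplicate, at 24 h and at 48 h after Dox was withdrawn, against 0 h cells kept in Dox at 1 µg/mL, which gives 4 libraries per time. Each clone is a single derived line, and the 0 h cells carry the same knockout and transgene. Every comparison is therefore of cells withdrawn from Dox against rescued cells kept in Dox, and not against wild type. Parental Cdk12 Fl/Fl; Cdk12 Tg- cells, held in Dox for 17 days and then withdrawn for 24 h or 48 h or kept in Dox, were sequenced in 6 libraries as a control for Dox itself.

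The table holds the authors' comparisons of each later time with 0 h in the knockout clones and no value per library. Expression levels, the spread between libraries and the sequencing depth behind a gene are therefore unknown, and no SD can stand beside a value. A change is written as later time over 0 h on the log2 scale, so 1 is a doubling. The header does not state the direction. It was inferred here from how the columns are named (0 h first) and from Cdk12, whose change was -0.61 at each time per the authors' deposited table with posterior probabilities of 0.0704 and 0.266, too low to be called. Cdk12 RNA thus stood at 65.6% of its 0 h level at 24 h and 65.4% at 48 h, and the table does not itself establish depletion. If the direction were the other way, all rises and falls below would change places. All 8 embryonic stem cell markers looked for, Pou5f1, Sox2, Nanog, Zfp42, Esrrb, Klf4, Utf1 and Dppa5a, were listed, with changes between -0.46 and 0.39 at 48 h per the authors' deposited table, all uncalled. Their levels could not be examined.

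Nucleotide excision repair cuts out a short stretch of a DNA strand that carries a bulky lesion, such as the dimers left by ultraviolet light. In global genome repair the lesion is found by Xpc with help from Ddb2, while in transcription-coupled repair a stalled RNA polymerase II calls in Ercc6 (CSB) and Ercc8 (CSA). Both routes load the factor TFIIH, whose helicases Ercc2 (XPD) and Ercc3 (XPB) open the DNA. Xpa then helps to verify the damage, and the nucleases Ercc5 (XPG) and Ercc1-Ercc4 (XPF) cut on the 3' and 5' sides. Inherited loss of these genes in humans causes xeroderma pigmentosum, Cockayne syndrome and related disorders. TFIIH also serves transcription by RNA polymerase II, the enzyme whose C-terminal domain Cdk12 phosphorylates.

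Of the 10 genes 1 changed past the threshold. Ercc5, the 3' nuclease, rose 1.89-fold at 48 h, a change of 0.92 per the authors' deposited table, while the other 9 genes lay between -0.31 and 0.45 and were not called. A call here means that the authors' posterior probability of differential expression is at least 0.95. By that rule 1 of 10 members had risen and 0 had fallen at 48 h. Over all genes 3.72% were called as risen and 3.97% as fallen at that time. At 24 h 0 of 10 members were called, where 0.45% of all genes were called as risen and 0.679% as fallen. The authors' adjusted p, a second statistic with no stated test, called the same member at 48 h at a limit of 0.05 and 0 at 24 h, against 1.72% of all genes risen and 1.99% fallen at 48 h, and 0.0159% and 0.151% at 24 h. Unadjusted p-values are not in the table. A single called gene among 10 is too few to set the group apart from these shares.

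**Figure D1:**
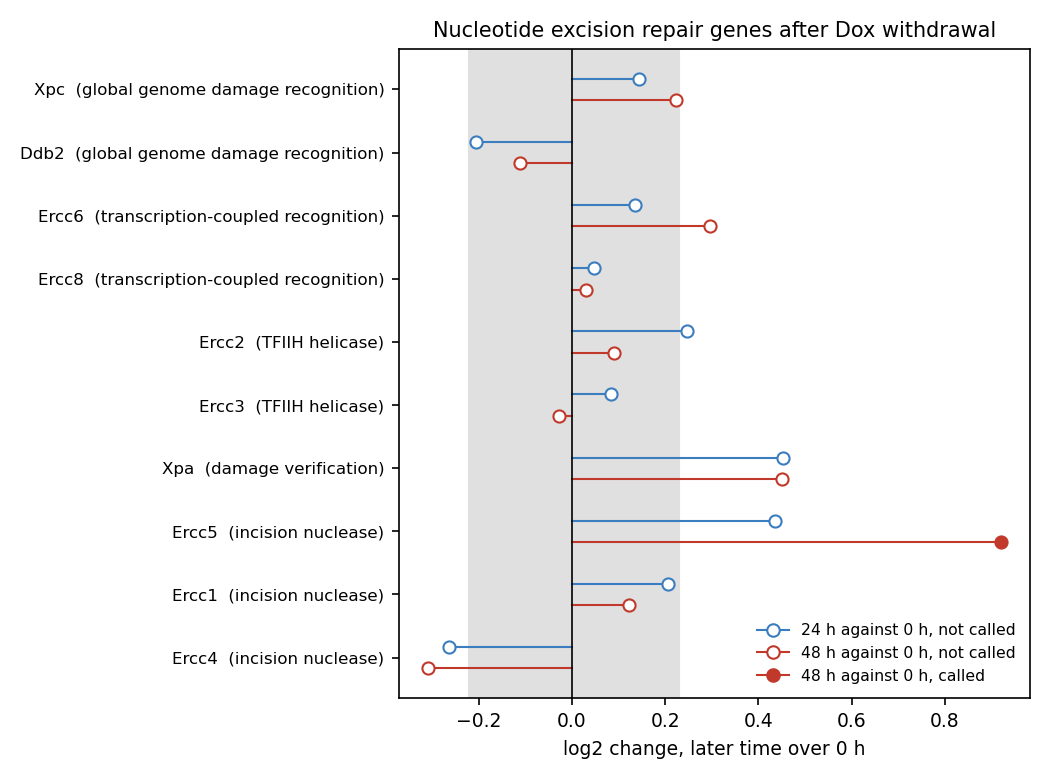
Log2 change at 24 h (blue) and 48 h (red) over 0 h for the 10 genes, ordered by role, from the authors' deposited table; filled points were called, and the grey band runs from the lower to the upper quartile of all genes at 48 h, -0.22 to 0.23. Ercc5 at 0.92 is the one filled point, Xpa sits near 0.45 at both times, and Ercc4 is lowest at -0.31.

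Ercc5 encodes the structure-specific nuclease that makes the 3' incision and also stabilises TFIIH. Its change was 0.44 at 24 h, with a posterior probability of 0.358 and an adjusted p of 1 per the authors' deposited table. At 48 h the change of 0.92 came with a posterior probability of 0.99993 and an adjusted p of 0.0152 there. It ranked 279 from the top of 12766 genes with a change at 48 h, and 605 of 12819 at 24 h. Genes with a larger change in size made up 5.33% of the table at 48 h. Ercc5 also carries, at 48 h, the authors' yes mark in a column named for a Dox effect, whose meaning the table does not define. That mark was given to 149 genes at 48 h, all of them called, which is 15.6% of the called genes, and to 66 of the 461 genes called as risen. How Ercc5 behaved in the parental cells is not shown by the table, so a change from Dox withdrawal itself and one from loss of Cdk12 cannot be told apart for this gene.

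The promoters of 3 members are printed, those of the called gene (Ercc5), of the largest uncalled positive change (Xpa) and of the lowest (Ercc4). RefSeq windows of GRCm38.p6 from 250 bases before to 50 bases after the annotated start were found for 7 of the 10 genes. The windows lie at chr1:44147494-44147793 on the plus strand for Ercc5, chr4:46196262-46196561 on the minus strand for Xpa and chr16:13109486-13109785 on the plus strand for Ercc4, each written 5' to 3' along its gene. Capitals mark a CCAAT box, read as CCAAT on either strand.
Ercc5: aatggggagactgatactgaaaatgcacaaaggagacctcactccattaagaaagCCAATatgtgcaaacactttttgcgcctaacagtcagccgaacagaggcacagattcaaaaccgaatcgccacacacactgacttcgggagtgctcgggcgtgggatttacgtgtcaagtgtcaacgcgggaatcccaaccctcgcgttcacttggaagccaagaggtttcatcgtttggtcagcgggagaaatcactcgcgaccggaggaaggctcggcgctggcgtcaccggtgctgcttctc
Xpa: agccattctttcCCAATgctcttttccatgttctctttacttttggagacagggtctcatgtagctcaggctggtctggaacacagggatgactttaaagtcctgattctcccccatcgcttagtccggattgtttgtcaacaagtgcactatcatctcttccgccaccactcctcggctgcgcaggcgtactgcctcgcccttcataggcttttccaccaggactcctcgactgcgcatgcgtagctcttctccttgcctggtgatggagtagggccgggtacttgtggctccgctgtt
Ercc4: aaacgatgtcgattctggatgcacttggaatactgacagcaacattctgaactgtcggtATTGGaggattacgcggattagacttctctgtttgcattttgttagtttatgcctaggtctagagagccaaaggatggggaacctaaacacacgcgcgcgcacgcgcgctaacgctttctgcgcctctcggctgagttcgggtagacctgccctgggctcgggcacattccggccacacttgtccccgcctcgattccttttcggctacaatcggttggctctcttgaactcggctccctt
All 3 windows have 53.3% G and C, where the median of the 32851 windows in the RefSeq table is 52.7%. Each holds 1 CCAAT box far from the start, 195 bases before it in Ercc5, 238 in Xpa and, on the opposite strand, 191 in Ercc4. None holds the GC box GGGCGG on either strand, a binding sequence of Sp1 and related factors. Ercc1, Ercc2, Ercc6 and Ercc8 have 1 each within 116 bases before the start, and the motif occurs in 35.7% of all windows. A CCAAT box is in 5 of the 7 member windows and in 37.4% of all windows, and Ercc2 has 3 and Ercc8 has 2 of them within 89 bases before the start. The sequence TATAAA is in none of the 7 on either strand and in 13.6% of all windows. The 3 printed genes share these motif counts, and their changes at 48 h run from -0.31 to 0.92. They were picked by those changes, and a link between promoter sequence and change was not tested. A match of letters is not a binding site, and a missing match says nothing of the factor.

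Among the recognition genes no change was called. Xpc, the sensor of helix distortion in global genome repair, stood at 0.14 at 24 h and 0.22 at 48 h per the authors' deposited table, with posterior probabilities of 0.00413 and 0.0224. Ddb2, the damage-binding subunit that recognises ultraviolet dimers, lay on the other side of 0, at -0.20 and -0.11, with posterior probabilities of 0.00692 and 0.0196 there. In human cells both are known as p53-induced genes. The transcription-coupled sensors were uncalled as well. Ercc6, the ATP-dependent remodeller that binds stalled polymerase, had changes of 0.14 and 0.30 per the authors' deposited table. Ercc8, the substrate receptor of the ubiquitin ligase that acts with it, had values nearer to 0 than those of Ercc6, 0.05 and 0.03. Posterior probabilities of both genes were at most 0.0270.

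The 2 helicase subunits of TFIIH were close to their 0 h values at 48 h. Ercc2, the 5' to 3' helicase that tracks along the damaged strand, stood at 0.25 at 24 h and 0.09 at 48 h per the authors' deposited table. Ercc3, the translocase needed both for repair and for promoter opening, stood at 0.08 and -0.03. Their posterior probabilities were 0.0064 and 0.0021 at 24 h, and 0.0086 and 0.0077 at 48 h, so the table gives almost no weight to a change of either.

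Xpa and the second nuclease were uncalled at both times. Xpa, the scaffold that verifies damage and brings Ercc1-Ercc4 to it, stood at 0.45 at both times per the authors' deposited table, 1.37-fold its 0 h level. It was not called, with posterior probabilities of 0.0297 and 0.103. In size the 24 h change of Xpa was no smaller than that of Ercc5, which had 0.44 and a posterior probability of 0.358, so the posterior probability follows more than the size of the change. Ercc1, the non-catalytic partner in the 5' nuclease, stood at 0.21 and 0.12 per the authors' deposited table. Ercc4, its catalytic partner, stood at -0.26 and -0.31, or 83.3% and 80.7% of the 0 h level. The 2 proteins work only as a pair, and their transcripts lay on opposite sides of 0 at both times, but neither was called, with posterior probabilities of at most 0.0691.

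Over the 10 genes the median change was 0.14 at 24 h and 0.11 at 48 h, beside 0.01 over all genes at both times. Values above 0 were held by 8 of 10 members at 24 h and by 7 of 10 at 48 h, where 52.2% and 51.4% of all genes were above 0. The 0 h libraries are common to both comparisons, so the 2 counts are not independent. Ddb2 and Ercc4 were below 0 at both times and Ercc3 at 48 h only. Apart from Ercc5, the highest posterior probability of a member at 48 h was the 0.103 of Xpa.

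**Figure D2:**
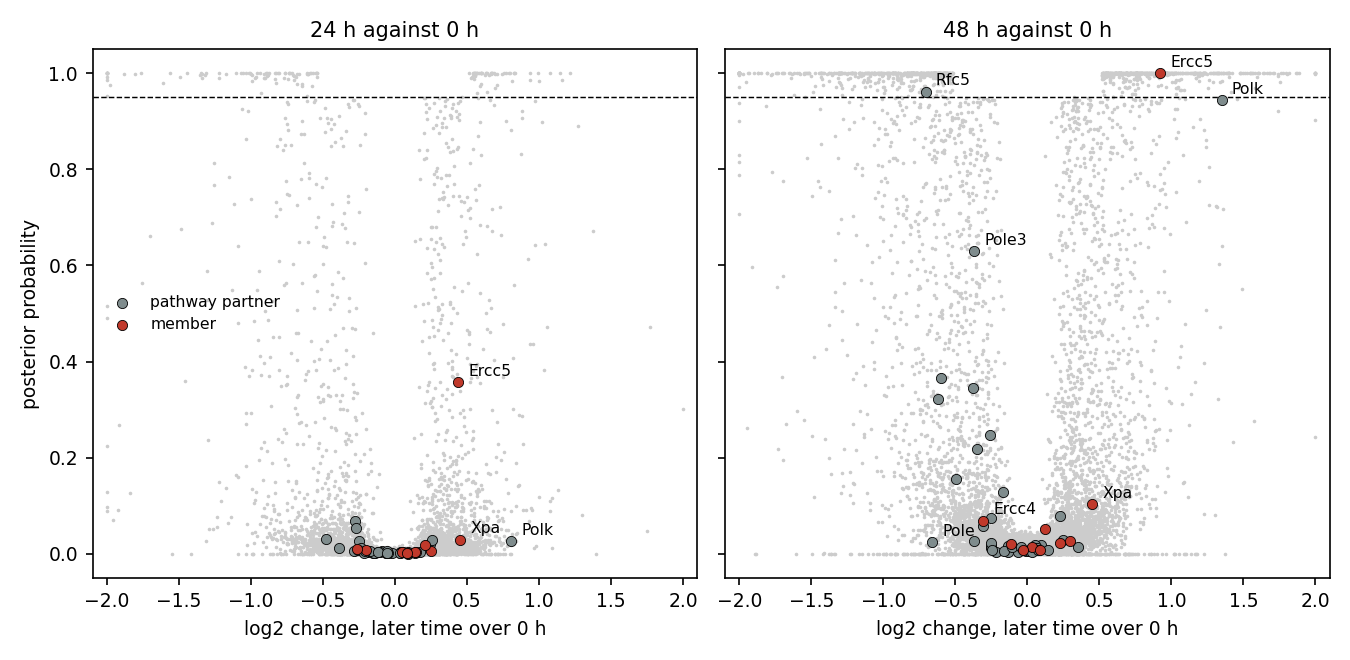
Authors' posterior probability against log2 change (later time over 0 h) at 24 h and 48 h. Grey points are all genes that carried a posterior probability, set to the edge beyond a change of 2. Red points are the members, dark grey points the pathway partners that carried one, and the dashed line is 0.95. Ercc5 moves from 0.358 at 24 h to the top at 48 h, Rfc5 lies just above the line at 0.962 and Polk just below it at 0.944.

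The rest of the pathway was taken as 40 partners, all listed: helpers of recognition, TFIIH subunits, the single-strand binding protein RPA, and the polymerases, clamp loader and ligases that fill the gap. Of these, 39 carried a posterior probability at 48 h. The table leaves it blank for Cetn2, which helps Xpc, as it does for 358 genes in all, of which 356 changed by less than any called gene. Of the 39 partners 1 was called, as fallen, where 3.97% of all genes were called as fallen, so the count does not set the partners apart. Rfc5, a subunit of the clamp loader that puts PCNA on DNA, fell by 0.71 at 48 h per the authors' deposited table, to 0.61 times its 0 h level, with a posterior probability of 0.962 and an adjusted p of 0.104, and so missed the limit of the second statistic. At 24 h 0 of 40 were called by the posterior probability and 0 by the adjusted p. Of all genes at 24 h, the posterior probability called 0.45% as risen and 0.679% as fallen, and the adjusted p 0.0159% and 0.151%. A count of 0 in 40 does not differ visibly from such shares. The median of the partners was -0.08 at 24 h and -0.15 at 48 h, and 26 of 40 lay below 0 at 48 h. The members' median at that time was above 0, and the difference between the lists was not tested.

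By step, differences between the partners were not tested, and the order of the medians was not the same at both times. Replication proteins used for gap filling and ligation had a median of -0.08 at 24 h and -0.25 at 48 h over 18 genes, with 14 below 0 at 48 h. The 3 RPA subunits had -0.14 and -0.22, and the 6 recognition partners -0.16 and -0.07. Among the gap-filling genes, Pole, the catalytic subunit of polymerase epsilon, stood at -0.66 at 48 h per the authors' deposited table. Rfc4 stood at -0.62 there, and the posterior probabilities were 0.0248 and 0.321. Polk, a Y-family polymerase that takes part in repair synthesis, went the other way. It stood at 0.81 at 24 h and 1.35 at 48 h per the authors' deposited table, 2.55-fold its 0 h level at 48 h. That is the largest change among the members and partners, and it was not called, with a posterior probability of 0.944 and an adjusted p of 0.0528. All 3 RPA subunits lay below 0 at both times, Rpa3 lowest at -0.48 and -0.49 per the authors' deposited table, all 3 uncalled. Core TFIIH subunits Gtf2h1 to Gtf2h5 had a median of 0.03 at 48 h and a range of -0.25 to 0.14. In the kinase module of TFIIH, Cdk7 stood at -0.35 while its partners Ccnh and Mnat1 stood at 0.05 each per the authors' deposited table.

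Partners of the recognition genes were uncalled too. Uvssa, which acts with Ercc6 and Ercc8 and is listed under the older name 4933407H18Rik, stood at -0.14 at 24 h and -0.60 at 48 h per the authors' deposited table, with a posterior probability of 0.366 at 48 h. Ddb1, the adaptor that joins Ddb2 and Ercc8 to the Cul4 ligases, stood at 0.35 at 48 h, while Cul4a stood at -0.37 and Cul4b at 0.01. Rad23b, which stabilises Xpc, had -0.13 at 48 h per the authors' deposited table.

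**Figure D3:**
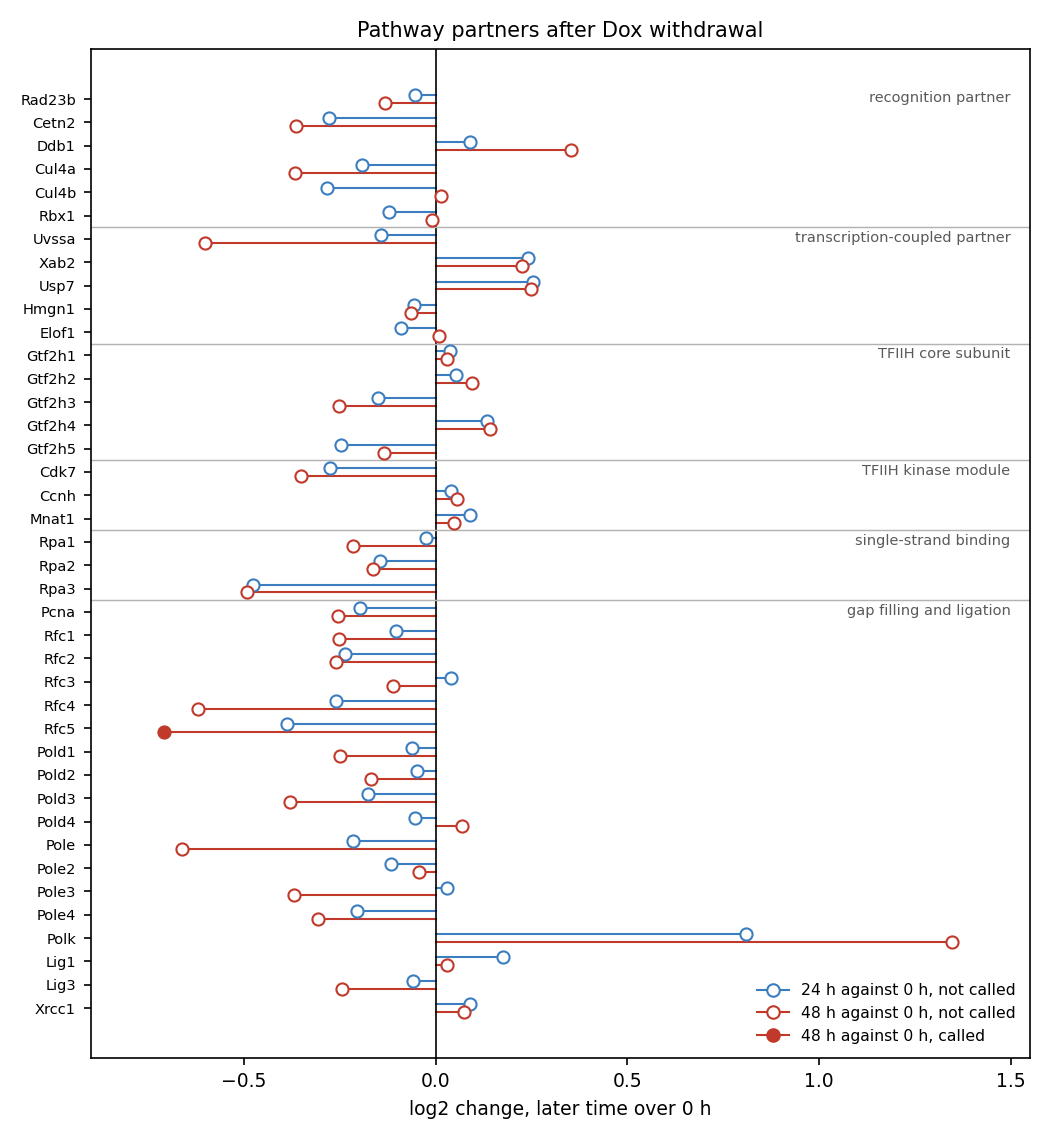
Log2 change at 24 h (blue) and 48 h (red) over 0 h for the 40 pathway partners, grouped by role, from the authors' deposited table; filled points were called. Rfc5 at -0.71 is the one filled point, Polk reaches 1.35 at 48 h, and 14 of the 18 gap-filling and ligation genes lie below 0 at 48 h.

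Set beside 3 other repair lists, the 10 nucleotide excision repair genes had the highest median, as a description without a test. The ranking holds for these 10 genes only. Their 40 pathway partners, with a median of -0.15 at 48 h and 26 of 40 below 0, are not in that list. Mismatch repair genes had a median of -0.32 at 48 h, with 8 of 8 below 0 and 0 called by either statistic. The Fanconi anemia core and ID2 genes had -0.31, with 11 of 12 below 0 and 1 of the 11 that carried a posterior probability called, as fallen. Glycosylases of base excision repair had -0.05, with 2 of 11 called, both as fallen. The nucleotide excision repair genes had 0.11, with 3 of 10 below 0 and 1 called, as risen. Over all genes 3.97% were called as fallen and 3.72% as risen at 48 h, and counts of 0 to 2 in lists of this size set no list apart from these shares. Of the 4 calls in the 4 lists, Ercc5 and the glycosylase Ogg1 carry the Dox mark.

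Several members share their locus with other genes, which bears on how reads could be assigned. Whether counting used strand is not stated in these sources, so reads from overlapping genes may not be separable. Ercc1 overlaps Cd3eap on the opposite strand, and Ercc2 overlaps Klc3 on the opposite strand. Cd3eap stood at -0.54 at 48 h per the authors' deposited table, beside 0.12 for Ercc1, and Klc3 stood at 0.28 beside 0.09 for Ercc2. Ddb2 overlaps the acid phosphatase gene Acp2, which stood at -0.76 at 48 h with a posterior probability of 0.557, beside -0.11 for Ddb2. Ppp1r13l, which encodes an inhibitor of p53 and lies between Ercc1 and Ercc2, rose by 0.58 at 48 h per the authors' deposited table by the posterior probability of 0.998, with an adjusted p of 0.231. No overlapping gene was annotated at Ercc5. Its nearest listed neighbour Bivm, upstream on the same strand, stood at -0.20 at 24 h and -0.03 at 48 h per the authors' deposited table and was not called, so the rise at this locus was seen in the row of Ercc5 and not in that of Bivm. Next to Xpc the membrane protein gene Tmem43 rose by 1.20 at 48 h per the authors' deposited table, with an adjusted p of 0.000184 and the Dox mark. Lsm3, the gene on the other side of Xpc, stood at 0.01. The remaining listed neighbours of members lay between the -0.51 of Nr1h3, beside Ddb2, and the 0.79 of Map3k2, beside Ercc3, at 48 h per the authors' deposited table, and were uncalled.

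**Figure D4:**
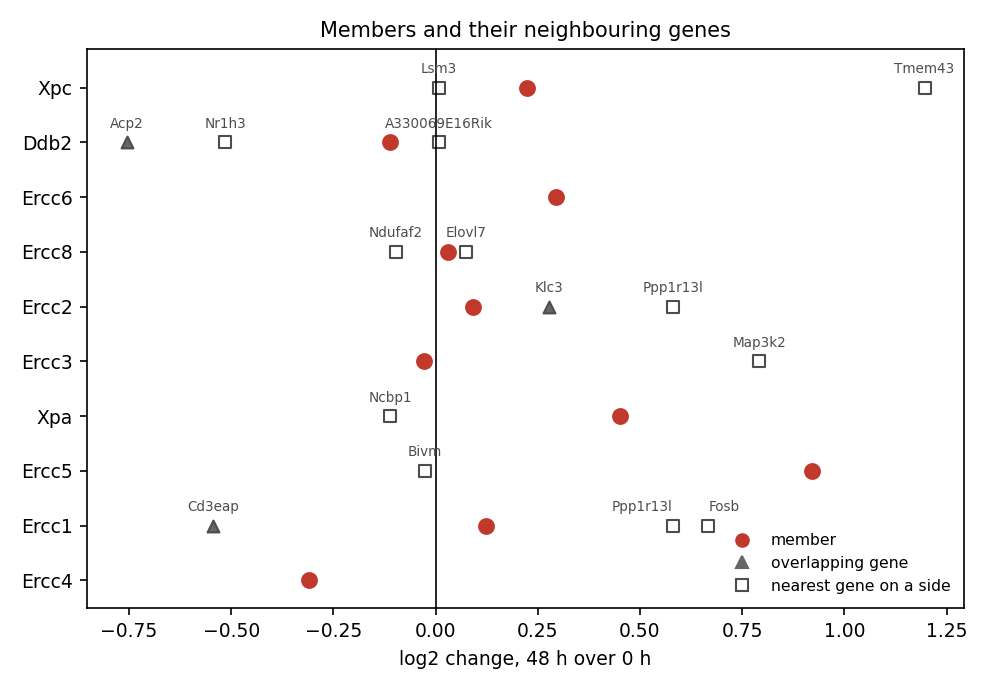
Log2 change at 48 h over 0 h for each member (red circles), for genes whose annotation overlaps it (grey triangles) and for the nearest gene on each side (open squares), where the authors' deposited table lists them. Ercc5 at 0.92 stands apart from Bivm at -0.03, and Tmem43 at 1.20 lies beyond Xpc at 0.22.

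Genomic length was set beside the changes as a description. By the GRCm38.p6 annotation the genes run from 12458 bases for Ercc1 to 67700 bases for Ercc6, and Ercc5 has 34313. Of the 3 longer members, Ercc6 stood at 0.30, Ercc4 at -0.31 and Ercc8 at 0.03 at 48 h per the authors' deposited table. The 2 shortest, Ercc1 and Ercc2, stood at 0.12 and 0.09.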

How the data were processed

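PolyA-selected RNA was sequenced in 18 libraries. Every expression value here comes from 1 deposited table, whose columns name comparisons of the knockout clones (12 libraries); whether the 6 parental libraries entered the Dox mark is not stated. The 32 chromatin immunoprecipitation and control libraries were not analysed here. The submitters' processing notes name STAR, RSEM and DESeq 1.22.1, with no role or order, and both mm9 and mm10. The deposited table carries EBSeq in its name, and which tool gave which statistic is not stated in these sources. Per the file headers, the authors deposited for each time a score from 0 to 1 named PPDE, read as the posterior probability of differential expression, a log2 fold change, an adjusted p-value and a mark (yes or no) that names a Dox effect. The authors deposited the adjusted p-values with no word on the test. The deposited log2 changes were multiplied by -1. No model was fitted. Depth is unknown, so no interval was computed. Smallest called changes were 1.43-fold at both times, a property of the table. Rows that lack a posterior probability beside a change (156 at 24 h, 358 at 48 h) were not counted as callable, and 154 and 356 of these had a change smaller than any called gene; why they are blank is not stated.

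Calls were counted over the whole table with Python 3.11.15 and pandas 2.3.3, with counting tested on simulated data. Members, lists and tests were chosen with earlier results of these data known. Named were all members, partners called by either statistic, the 2 largest rises and falls of partners, neighbours, and the 3 nearest patterns of a called member. Cul4a, Cul4b, Rad23b, Cetn2, Uvssa, Rfc4, Rpa3, Cdk7, Ccnh and Mnat1, and Ogg1 among the glycosylases, were picked with their values known. As alternatives, calls were remade at a posterior probability of 0.99, by the adjusted p, with at least 1.5-fold or 2-fold change and with marked genes left out, and medians were taken over genes with a posterior probability or relative to all genes. Symbols and unique synonyms were matched to RefSeq GRCm38.p6. Promoter coordinates are those of this annotation, and the build behind the table is not given. Some results on single genes are left out of the lists and the text.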

Additional observations from a re-analysis of the deposited data

How the results depend on the processing

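The rise of Ercc5 was the one call among the members. It was kept at a posterior probability of 0.99 and at a minimum change of 1.5-fold, which its values of 0.99993 and 1.89-fold fix in advance. It was also kept by the authors' adjusted p, given for the same comparison. At a minimum change of 2-fold, and without genes that carry the authors' Dox mark, 0 members were called at 48 h. The fall of Rfc5 among the partners was lost at 0.99, by the adjusted p and at 2-fold, where 0 partners were called. By these rules 3.18%, 1.99% and 1.51% of all genes were called as fallen at 48 h, so the counts do not set the partners apart. Over all genes the adjusted p called 21 at 24 h and 465 at 48 h, and a 2-fold minimum 37 and 332, against 143 and 954. Chosen after seeing the data, counting rows without a posterior probability as called left the members' counts as they were, and gave 2 partners fallen at 48 h (with Cetn2) and 299 genes called at 24 h and 1312 at 48 h. The members' median of 0.14 at 24 h and 0.11 at 48 h became 0.128 and 0.0945 relative to the median of all genes, and 0.0905 at 48 h without marked genes. The partners' medians of -0.08 and -0.15 became -0.0874 and -0.161 relative to all genes, and -0.134 at 48 h over those with a posterior probability. Each of these shifts follows from the setting's own construction. Over 15 named genes, 175 of 179 settings left the gene on its side of the threshold. Most of these could not have done otherwise, because an uncalled gene could gain a call only by the adjusted p. The 175 are therefore no measure of how firm the calls are. A call was lost in 4 settings, Ercc5 at 2-fold and Rfc5 at 0.99, by the adjusted p and at 2-fold. The 179 leave out Ercc5 at 48 h without marked genes, a setting that removes its row. No paired analysis was possible because the table holds no value per library, and for the same reason no library could be left out.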

Other observations

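Ercc5 was set against 11267 other genes that carried a posterior probability at each time and no predicted or clone name, in a search for the pair of changes nearest to its own. The measure was the Euclidean distance over 2 comparisons that share their 0 h libraries. The nearest was Kcnj4, a potassium channel gene, at 0.43 at 24 h and 0.94 at 48 h per the authors' deposited table, at a distance of 0.0155. Hey1, a transcriptional repressor downstream of Notch, stood at 0.44 and 0.94, and Fam126b at 0.41 and 0.91. These near-equal changes carried very different weights at 48 h per the authors' deposited table: a posterior probability of 1 for Kcnj4 and 0.998 for Fam126b, and of 1.15e-21 for Hey1, which was therefore not called. By the second statistic the adjusted p was 0.0172 for Kcnj4, 0.104 for Fam126b and 0.203 for Hey1. None of the 3 carries the Dox mark that Ercc5 has.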
